A study of Mus musculus with 12 samples.

Results

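The 49 genes described here encode the proteins that copy DNA. They were chosen by name from a deposited table of 53351 genes, and cover origin recognition, helicase loading, the replicative helicase and its activation, the sliding clamp and its loader, polymerases and primase, single-strand binding, the supply of deoxynucleotides (dNTPs) and the joining of Okazaki fragments. Cyclins were not included. All 49 were found in the table, and all 49 passed the filter on low values.

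The cells were wild-type mouse neural progenitor cells, dissected from the cerebral cortex of E13.5 embryos and kept in culture overnight with bFGF and EGF. They received 250 nM Torin1, a small molecule that inhibits the kinase mTOR, or DMSO, the solvent, for 2 h. All cells, DMSO included, then received cycloheximide at 100 ug/ml for 5 min, which holds ribosomes on their mRNAs. Polysome mRNA was taken from the gradient fractions with more than 3 ribosomes per mRNA, and total mRNA from the 10% of each lysate kept as input. The 12 libraries formed 4 groups of 3, namely polysome mRNA from Torin1 and from DMSO cells and total mRNA from Torin1 and from DMSO cells. The labels call the 3 libraries of a group biological replicates and do not say how the cultures were separated. The p-values therefore measure the spread between these samples, taken over all 4 groups together.

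As background, a cell may start each replication origin once per cycle. In G1 the origin recognition complex (ORC), Cdc6 and Cdt1 load the MCM helicase onto DNA, and in S phase the Cdc7 kinase, Cdc45 and the GINS complex switch it on. Polymerase alpha with primase then lays down primers, polymerases delta and epsilon extend them with the help of the sliding clamp PCNA, and ribonucleotide reductase, thymidylate synthase and thymidine kinase keep up the dNTPs. Progenitors of the embryonic cortex divide rapidly, and many of these genes are transcribed under E2F factors at the G1/S boundary. In bulk samples, fewer cells in a cycle phase and less RNA per cell cannot be told apart.

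Library depth is unknown, because the deposited signal is a relative abundance and cannot be turned back into reads, and counting error can therefore not be given. The 12 columns summed to between 14341674 and 19201406. Levels are printed as scaled abundances in parts-per-million (ppm), with mean ± SD over n = 3 libraries. No source used here says how values were scaled between genes, so levels are compared between libraries and not between genes. A log2 fold is on the log2(value + 1) scale with its standard error, and passed the test when limma's p, adjusted by Benjamini-Hochberg over 20240 genes, was below 0.05. For each gene the spread was estimated from all 12 libraries together and not from the groups compared. A gene's standard error for Torin1 against DMSO is thus the same in polysome and total mRNA. Pearson's r between libraries of a group lay between 0.9627 and 0.9844 over 9352 genes, which are not independent replicates. Total Torin1 replicate 2 stood apart in the noncoding RNA Rn7sk, with 2090 ppm against 38.6 to 183 ppm in the other 5 total libraries.

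Torin1 moved a small number of replication genes, and nearly all of these moved down. In polysome mRNA 9 of the 49 fell and 1 rose, beside 5.77% of all genes tested that fell and 4.55% that rose. In total mRNA 7 of the 49 fell and 1 rose, beside 4.17% and 3.31% of all genes. The count of rises was therefore close to the share among all genes, and the count of falls was above it. All 7 genes that fell in total mRNA, namely Cdc6, Mcm5, Rfc3, Pola2, Pole2, Rrm2 and Fen1, also fell in polysome mRNA, where Prim1 and Tk1 fell too. The riser in both was Mcm7. Per the labels' protocol, polysome and total mRNA were taken from the same lysates, so these are not independent measurements.

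The other 39 genes passed in neither. Over all 49, most folds were below 0. The median log2 fold of the 49 was -0.17 in polysome mRNA, with 38 below 0, while the median of all genes was 0 and 49.9% of them were below 0. In total mRNA it was -0.16, with 39 of the 49 below 0, while all genes had a median of -0.002 with 50.2% below 0. At an unadjusted p below 0.05, 23 members passed in polysome and 19 in total mRNA. The share of all genes at that cut was not taken, so these counts and those at the same cut below have no background. In total mRNA all 3 Torin1 libraries lay below all 3 DMSO libraries for 26 members and above them for 3, beside 17.9% and 15.5% of all genes. In polysome mRNA the same held for 15 and 3 members, beside 12.7% and 11.6% of all genes. Among the 12287 genes with a mean of at least 2 ppm, 9.06% fell and 6.51% rose in polysome mRNA, and 6.51% fell and 4.48% rose in total mRNA.

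**Figure D1:**
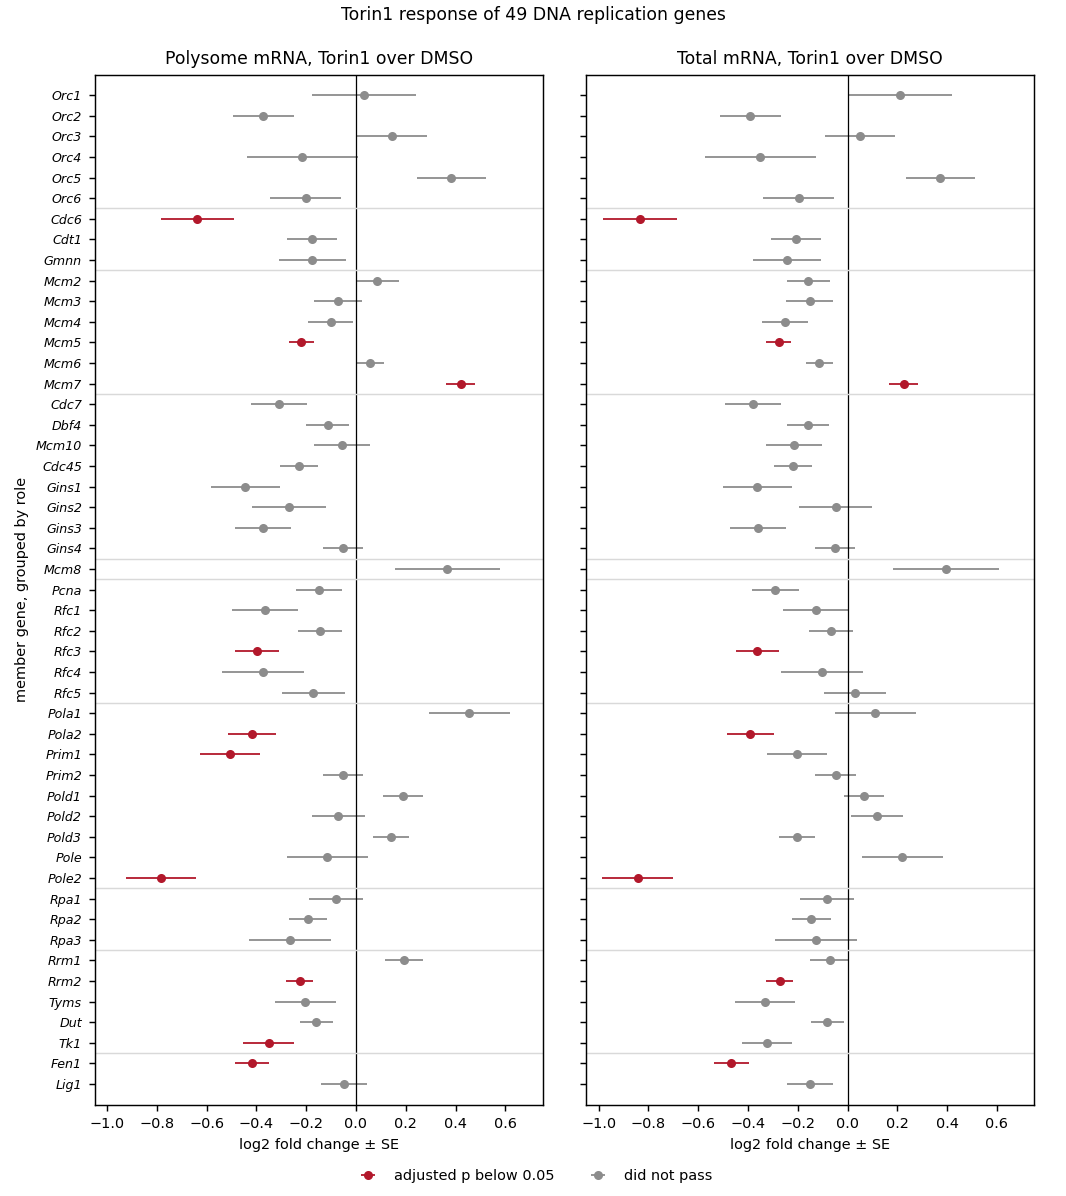
Log2 fold change of Torin1 over DMSO for the 49 genes in polysome mRNA (left) and total mRNA (right), as estimate ± standard error. Rows are ordered by role with grey lines between roles, and red points passed an adjusted p of 0.05: 9 below 0 and 1 above 0 in polysome mRNA, and 7 below 0 and 1 above 0 in total mRNA.

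These counts moved with the libraries kept and with the fit, and so did the counts over all genes. In polysome mRNA 20 of the 49 fell without Torin1 replicate 3 and 4 without DMSO replicate 1, beside 1696 and 734 of all genes. With every library 1167 of all genes fell. The count was 5 of the 49 without Torin1 replicate 2 or without DMSO replicate 3, beside 928 and 688 of all genes. Without Torin1 replicate 1, 4 of the 49 rose, beside 1123 of all genes. In total mRNA 4 of the 49 fell without Torin1 replicate 3 and 5 without any other of the 6 libraries, and none rose. Over all genes 369 to 494 fell and 310 to 376 rose in those 6 fits, against 844 and 669 with every library. The total calls on Mcm7, Rfc3 and Pola2 were lost in all 6 fits, while their folds stayed close. These folds ran from 0.21 to 0.24 for Mcm7, -0.38 to -0.35 for Rfc3 and -0.44 to -0.36 for Pola2. With only the 2 groups of a comparison in the fit, 0 of the 49 fell and 1 rose in polysome mRNA. In total mRNA 14 fell and 1 rose. Of all genes, 263 fell and 214 rose in polysome mRNA in that fit, and 1545 fell and 1063 rose in total mRNA.

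The polysome Torin1 libraries differed among themselves. Replicate 3 was the highest of the 3 for 28 of the 49 genes. It reached or passed the lowest DMSO library for 27 of them, while replicates 1 and 2 did so for 20 each. The summed abundance of the 49 genes was 3322, 3277 and 3775 ppm in polysome Torin1, against 3874, 3637 and 3813 ppm in polysome DMSO. Replicate 3 thus lay within the DMSO range and the other 2 below it. In total mRNA the sum was 2408, 2378 and 2282 ppm in Torin1 against 2618, 2579 and 2591 ppm in DMSO, and the groups did not overlap.

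The scaling of the libraries set the level of zero in polysome mRNA. Ribosomal protein mRNAs made up 9.42% to 11.2% of the polysome signal in Torin1 and 17% to 19.6% in DMSO. With the column total alone as the scale, the median of all genes in polysome mRNA was 0.23 (log2) and that of the 49 genes 0.08. Of the 49, 8 rose and 1 fell, beside 2911 and 329 of all 20240 genes. Relative to the median of all genes, 38 of the 49 lay below it in polysome mRNA under both scalings, and 39 in total mRNA. The scalings differ by a factor per library, which moves all folds nearly alike, so these counts could hardly differ between them. In total mRNA the column total gave 5 that fell and 0 that rose, beside 512 and 329 of all genes. The 5 were Cdc6, Pcna, Rfc3, Pole2 and Fen1. As a share of the column the 49 genes held 0.34% to 0.353% of polysome signal in Torin1 against 0.309% to 0.333% in DMSO, and 0.246% to 0.26% of total signal in Torin1 against 0.281% to 0.287% in DMSO. Falls in polysome mRNA below are therefore falls relative to most other genes.

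**Figure D2:**
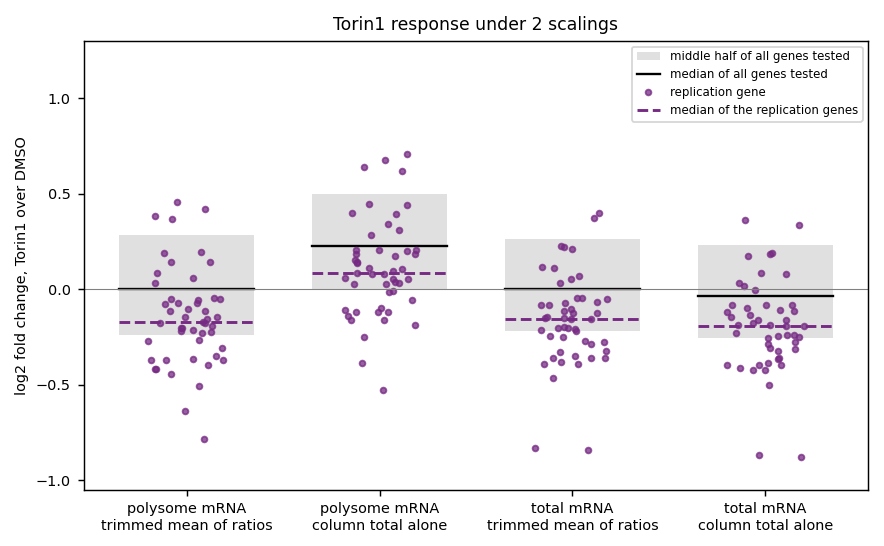
Log2 fold change of Torin1 over DMSO in polysome mRNA (left pair) and total mRNA (right pair), with libraries scaled by a trimmed mean of ratios or by the column total alone. Points are the 49 genes and the dashed line their median, and the grey box and black line are the interquartile range and median of all 20240 genes. The median of the 49 genes lies below that of all genes in all 4 columns, a gap that the choice of scaling can hardly change. Both medians sit above 0 in polysome mRNA under the column total.

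Promoters were looked at because E2F factors are known to drive many of these genes. RefSeq promoter windows (GRCm38.p6, 250 bases before to 50 after the gene start) were matched by symbol for 41 of the 49 genes, and not for Gmnn, Mcm4, Gins1, Gins2, Gins4, Rfc2, Prim2 and Pole. The words TTTCCCGC, TTTGGCGC, TTTGCCGC and TTTCGCGC, which are E2F-type, were searched on both strands, with overlapping matches kept. They were found for 16 of the 41 genes (39%), against 704 of the 27025 genes with a promoter window (2.6%). Among the genes that passed the Torin1 test they were in 5 of 10, namely Cdc6, Mcm5, Mcm7, Rfc3 and Pole2, and among the other members in 11 of 31 (35.5%). A match describes letters and not a bound site. Stretches of 5 promoters follow, written 5′ to 3′ on the gene's strand with the matched words in capitals. Cdc6, Mcm5 and Rfc3 fell in both kinds of mRNA, Mcm7 rose, and Mcm6, which did not pass, has the most matches of these. The stretches are chr11:98908002-98908031 (+) for Cdc6, chr8:75109319-75109418 (+) for Mcm5, chr1:128359736-128359835 (-) for Mcm6, chr5:138172030-138172059 (-) for Mcm7 and chr5:151651209-151651308 (-) for Rfc3. The Cdc6 stretch lies inside the annotated span of Cdc6 itself and the Mcm7 stretch inside those of Mcm7 and Ap4m1, since the promoter table counts from a start within these spans.
Cdc6: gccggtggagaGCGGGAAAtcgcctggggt
Mcm5: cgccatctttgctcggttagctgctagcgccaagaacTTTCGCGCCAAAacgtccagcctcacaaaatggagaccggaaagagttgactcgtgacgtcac
Mcm6: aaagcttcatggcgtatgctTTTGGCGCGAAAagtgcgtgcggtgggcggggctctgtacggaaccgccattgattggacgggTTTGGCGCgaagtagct
Mcm7: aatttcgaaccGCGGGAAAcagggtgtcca
Rfc3: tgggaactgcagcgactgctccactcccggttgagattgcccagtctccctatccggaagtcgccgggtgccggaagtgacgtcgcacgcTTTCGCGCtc
In Mcm5 and in the upstream site of Mcm6, a word and one on the opposite strand overlap to give a longer run of capitals. The riser Mcm7 and the faller Cdc6 carry the same word in the same orientation, 165 and 138 bases before the start, and Mcm7 has a second match 17 bases after it.

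Origin recognition genes showed no shared direction. limma called none of the 6, with 2 at an unadjusted p below 0.05 in each kind of mRNA, 3 were below 0 in each, and the median log2 folds were -0.08 in polysome and -0.07 in total mRNA. Orc1, the ATPase subunit that binds late in the cycle, had the lowest deposited values of the 49 genes. It had 2.62, 2.79 and 3.2 ppm in polysome Torin1, against 2.61, 3.36 and 2.48 ppm in polysome DMSO. Total mRNA held 3.51, 3.79 and 2.55 ppm in Torin1, against 2.39, 2.65 and 3.44 ppm in DMSO. The groups overlapped in both. Orc1 overlaps Prpf38a, a gene at 87.5 ppm of the column on the other strand, by 3632 bases, so the Orc1 values are uncertain without strand. Orc2 and Orc5, both core subunits, had folds of opposite sign and did not pass. Orc5 had log2 folds of 0.38 ± 0.14 in polysome and 0.37 ± 0.14 in total mRNA (adjusted p = 0.108 and 0.141), with every Torin1 library above every DMSO library in each. Orc2 had -0.37 ± 0.12 and -0.39 ± 0.12 (adjusted p = 0.0832 and 0.0864), with every Torin1 library below every DMSO library. Under the column total Orc5 and Orc3 rose in polysome mRNA (log2 folds 0.64 and 0.40, adjusted p = 0.00243 and 0.0409). Orc3, Orc4 and Orc6 had folds from -0.22 to 0.14 in polysome mRNA and from -0.35 to 0.05 in total mRNA.

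Of the helicase loaders, Cdc6 had one of the deepest falls of the set. Cdc6 (chromosome 11, 98907709 to 98923942) is the ATPase that joins ORC at the origin so that MCM rings can be loaded. It had 7.44, 5.98 and 5.03 ppm in polysome Torin1, against 10.2, 9.14 and 9.12 ppm in polysome DMSO. Levels in total mRNA were 6.41, 7.12 and 5.71 ppm in Torin1, against 10.5, 12.6 and 11.3 ppm in DMSO. No Torin1 library reached a DMSO library in either. limma gave a log2 fold of -0.64 ± 0.15 in polysome mRNA (adjusted p = 0.0169) and -0.83 ± 0.15 in total mRNA (adjusted p = 0.00599). In polysome mRNA the call was lost without DMSO replicate 1 (adjusted p = 0.0676) and under the column total (log2 fold -0.39, adjusted p = 0.145).

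The partner of Cdc6 in loading, Cdt1, and the Cdt1 inhibitor geminin (Gmnn) did not pass. Cdt1 averaged 22.3 ± 2.72 ppm in polysome Torin1 and 25.2 ± 2.31 ppm in polysome DMSO, and 21.7 ± 1.43 ppm in total Torin1 and 25 ± 0.813 ppm in total DMSO. Its log2 folds were -0.18 ± 0.10 and -0.21 ± 0.10. Gmnn had -0.18 ± 0.14 in polysome and -0.24 ± 0.14 in total mRNA. In total mRNA the Torin1 libraries lay below the DMSO libraries for both genes, and in polysome mRNA they overlapped. The ratio of Cdc6 to Cdt1 within a library needs no scaling. It was 0.309, 0.252 and 0.262 in polysome Torin1, against 0.405, 0.333 and 0.399 in polysome DMSO. Total mRNA gave 0.279, 0.354 and 0.261 in Torin1, against 0.417, 0.523 and 0.44 in DMSO. The groups did not overlap in either. This ratio and the others below were chosen after their values were seen, and are given as a description with no test.

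The 6 subunits of the MCM helicase form one ring. Mcm5 fell, Mcm7 rose, and the other 4 did not pass. Mcm5 (chromosome 8, 75109468 to 75128439) had 79.4, 77.2 and 74.4 ppm in polysome Torin1, against 87.5, 90.6 and 91.1 ppm in polysome DMSO. The total mRNA libraries had 57.9, 58 and 57.7 ppm in Torin1, against 69.8, 70.3 and 70.4 ppm in DMSO. Its libraries were tight in each group and did not overlap. This made a log2 fold of -0.22 ± 0.05 in polysome mRNA (adjusted p = 0.0156), which became 0.03 under the column total (adjusted p = 0.84), and -0.28 ± 0.05 in total mRNA (adjusted p = 0.00671), which became -0.31 (adjusted p = 0.0645). The polysome call was also lost without DMSO replicate 3 (adjusted p = 0.0619).

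Mcm7 (chromosome 5, 138164583 to 138172111) had 254, 234 and 226 ppm in polysome Torin1, against 180, 171 and 181 ppm in polysome DMSO. In total mRNA it had 202, 201 and 193 ppm in Torin1, against 172, 171 and 167 ppm in DMSO. Every Torin1 library was above every DMSO library in both. On the log2 scale the fold was 0.42 ± 0.06 in polysome mRNA (adjusted p = 0.000835), a call kept without each of the 6 libraries. In total mRNA it was 0.23 ± 0.06 (adjusted p = 0.0384), a call lost without any one of the 6 libraries (adjusted p from 0.0864 to 0.134) and under the column total (adjusted p = 0.226). Mcm7 overlaps Ap4m1, an adaptor complex gene on the other strand, by 91 bases, and holds the microRNA genes Mir25, Mir93 and Mir106b, which are listed at 0 in all 12 libraries. No source used here says whether counting used the strand.

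Mcm2, Mcm3, Mcm4 and Mcm6 had log2 folds from -0.10 to 0.09 in polysome mRNA and from -0.25 to -0.11 in total mRNA. In total mRNA every Torin1 library lay below every DMSO library for Mcm2, Mcm3 and Mcm4, as for Mcm5, while in polysome mRNA their groups overlapped. For Mcm6 the 3 polysome Torin1 values, 89.6, 90.6 and 90.5 ppm, were all above those of polysome DMSO, 87.1, 88.2 and 84.9 ppm, while in total mRNA the groups overlapped. Under the column total Mcm6 rose in polysome mRNA (log2 fold 0.31, adjusted p = 0.0308). The ratio of Mcm7 to the mean of Mcm2 to Mcm6 within a library was 3.74, 3.46 and 3.76 in polysome Torin1, against 2.71, 2.48 and 2.75 in polysome DMSO. Total mRNA gave 3.52, 3.49 and 3.38 in Torin1, against 2.66, 2.61 and 2.56 in DMSO. This ratio was chosen after Mcm7 was seen to rise, so its direction is a description. Mcm8, a related helicase of DNA repair and meiosis that is not in the ring, had log2 folds of 0.37 ± 0.21 in polysome and 0.40 ± 0.21 in total mRNA and did not pass (adjusted p = 0.329 and 0.319).

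Genes of helicase activation had low folds without passing. All 8 were below 0 in both kinds of mRNA, with medians of -0.25 in polysome and -0.22 in total mRNA, but under the column total Dbf4, Mcm10, Cdc45 and Gins4 were above 0 in polysome mRNA. limma called none of the 8, and 4 had an unadjusted p below 0.05 in each kind of mRNA. Gins1 and Gins3 belong to the GINS complex, which binds the helicase with Cdc45. Gins1 had -0.44 ± 0.14 in polysome and -0.36 ± 0.14 in total mRNA (adjusted p = 0.0677 and 0.155). Gins3 had -0.37 ± 0.11 and -0.36 ± 0.11 (adjusted p = 0.0569 and 0.0773), with no overlap of the groups in either. Cdc7, the kinase that phosphorylates the MCM ring, had -0.31 ± 0.11 and -0.38 ± 0.11 (adjusted p = 0.107 and 0.0634), with no overlap in total mRNA and groups that touched at 11 ppm in polysome mRNA. Its activator Dbf4 had -0.11 ± 0.09 and -0.16 ± 0.09. Cdc45 had -0.23 ± 0.08 and -0.22 ± 0.08, also with no overlap. Gins2, Gins4 and the firing factor Mcm10 had folds from -0.27 to -0.05 in polysome mRNA and from -0.22 to -0.05 in total mRNA.

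In the sliding clamp and its loader, Rfc3 fell and the others did not pass. Replication factor C (RFC) opens the PCNA ring and closes it around DNA, and Rfc3 (chromosome 5, 151642817 to 151651208) is one of its small subunits. Rfc3 had 90, 87.3 and 106 ppm in polysome Torin1, against 134, 110 and 129 ppm in polysome DMSO. Total mRNA held 49.9, 50.1 and 52 ppm in Torin1, against 65.4, 64 and 66.2 ppm in DMSO. The groups did not overlap in either, and the gap was narrow in polysome mRNA, between Torin1 replicate 3 and DMSO replicate 2. The log2 fold was -0.40 ± 0.09 in polysome mRNA (adjusted p = 0.013) and -0.36 ± 0.09 in total mRNA (adjusted p = 0.0269). In polysome mRNA the call was lost without Torin1 replicate 2, DMSO replicate 1 or DMSO replicate 3 (adjusted p at most 0.0605) and under the column total (log2 fold -0.14, adjusted p = 0.189). The total call was lost without any one of the 6 libraries (adjusted p at most 0.0877).

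Pcna, the clamp itself, had the highest deposited values of the 49 genes. It had 323, 349 and 430 ppm in polysome Torin1, against 415, 390 and 407 ppm in polysome DMSO, and Torin1 replicate 3 was above all 3 DMSO libraries. Levels in total mRNA were 220, 219 and 204 ppm in Torin1, against 275, 261 and 250 ppm in DMSO, with no overlap. The log2 folds were -0.15 ± 0.09 and -0.29 ± 0.09 (adjusted p = 0.373 and 0.0877). The table also lists Pcna-ps2, named as a pseudogene of Pcna, at 82 ppm, so reads may be split between them and the Pcna values are uncertain. The loader subunits Rfc1, Rfc2, Rfc4 and Rfc5 had folds from -0.37 to -0.15 in polysome mRNA and from -0.13 to 0.03 in total mRNA, and their groups overlapped in both.

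Of the 9 polymerase and primase genes, Pole2, Pola2 and Prim1 fell in polysome mRNA and Pole2 and Pola2 in total mRNA, and none rose. Pole2 (chromosome 12, 69201773 to 69228205), the second subunit of polymerase epsilon, which copies the leading strand, had one of the deepest falls. It had 8.42, 9.76 and 12 ppm in polysome Torin1, against 18.6, 16 and 17 ppm in polysome DMSO. The total mRNA libraries had 5.87, 7.08 and 5.19 ppm in Torin1, against 10.8, 10.8 and 10.7 ppm in DMSO. The groups were well apart in both. limma gave a log2 fold of -0.78 ± 0.14 in polysome mRNA (adjusted p = 0.00445) and -0.84 ± 0.14 in total mRNA (adjusted p = 0.00466). Both calls were kept without each of the 6 libraries, and under the column total (adjusted p = 0.0168 and 0.00389).

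Pole itself, the catalytic subunit of the same enzyme, did not pass. It averaged 14.2 ± 2.62 ppm in polysome Torin1 and 15.2 ± 1.33 ppm in polysome DMSO, and 17.6 ± 3.84 ppm in total Torin1 and 14.9 ± 1.24 ppm in total DMSO. Its log2 folds were -0.12 ± 0.16 and 0.22 ± 0.16. The ratio of Pole2 to Pole within a library was 0.668, 0.767 and 0.699 in polysome Torin1, against 1.11, 1.11 and 1.17 in polysome DMSO. Total mRNA gave 0.273, 0.406 and 0.374 in Torin1, against 0.802, 0.683 and 0.698 in DMSO. The groups did not overlap. Pole2 overlaps Klhdc1 on the other strand by 477 bases, and Klhdc1 was at 1.84 ppm.

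Polymerase alpha and primase travel as one complex that starts each new strand. Pola2 (chromosome 19, 5940543 to 5964238), its accessory subunit, had 17.4, 14.9 and 13.7 ppm in polysome Torin1, against 20.1, 21.6 and 19.6 ppm in polysome DMSO. In total mRNA it had 13.7, 13.9 and 13 ppm in Torin1, against 16.5, 18.6 and 18.1 ppm in DMSO. There was no overlap in either. This made a log2 fold of -0.42 ± 0.10 in polysome mRNA (adjusted p = 0.0164) and -0.39 ± 0.10 in total mRNA (adjusted p = 0.0301). The polysome call was lost without Torin1 replicate 2 or DMSO replicate 2 (adjusted p at most 0.0587), the total call without any one of the 6 libraries (adjusted p at most 0.11), and both under the column total (log2 fold -0.16 in polysome and -0.43 in total mRNA, adjusted p = 0.449 and 0.0924).

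Prim1 (chromosome 10, 128015215 to 128030030), the catalytic primase subunit, passed in polysome mRNA and not in total mRNA. It had 42.7, 42.5 and 58.7 ppm in polysome Torin1, against 71.1, 58.7 and 73 ppm in polysome DMSO. To the digits printed, the highest Torin1 library and the lowest DMSO library were level. Total mRNA held 36.8, 33.5 and 33.8 ppm in Torin1, against 39.2, 41.5 and 39.1 ppm in DMSO. On the log2 scale the fold was -0.51 ± 0.12 in polysome mRNA (adjusted p = 0.0207) and -0.20 ± 0.12 in total mRNA (adjusted p = 0.377). The test of the difference between them gave -0.30 ± 0.17 and did not pass (adjusted p = 0.964). In polysome mRNA the call was lost without Torin1 replicate 1 or 2 or DMSO replicate 1 or 3 (adjusted p at most 0.0849) and under the column total (log2 fold -0.25, adjusted p = 0.0902).

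The catalytic polymerase alpha subunit gene Pola1 had a log2 fold of 0.46 ± 0.16 in polysome mRNA and 0.11 ± 0.16 in total mRNA and did not pass (adjusted p = 0.101 and 0.752). In polysome mRNA Torin1 replicate 1 lay within the DMSO range and the other 2 above it. Prim2, the large primase subunit, had -0.05 ± 0.08 in each kind of mRNA. The polymerase delta genes Pold1, Pold2 and Pold3 had folds from -0.07 to 0.19 in polysome mRNA and from -0.20 to 0.12 in total mRNA. Pold3 had 0.14 ± 0.07 in polysome mRNA and -0.20 ± 0.07 in total mRNA, a difference of 0.34 ± 0.10 that did not pass (adjusted p = 0.396). Under the column total Pola1, Pold1 and Pold3 rose in polysome mRNA (log2 folds 0.71, 0.44 and 0.40).

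The replication protein A genes, whose trimer coats single-stranded DNA, did not pass (limma, with 1 of the 3 at an unadjusted p below 0.05 in polysome mRNA and 0 in total mRNA). Rpa1, Rpa2 and Rpa3 had log2 folds from -0.27 to -0.08 in polysome mRNA and from -0.15 to -0.08 in total mRNA. Rpa2 was the one whose groups did not overlap in polysome mRNA, with 60.1, 54.3 and 58.5 ppm in Torin1 against 63.6, 67.9 and 66.3 ppm in DMSO.

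Of the dNTP supply genes, Rrm2 and Tk1 fell and the other 3 did not pass. Rrm2 (chromosome 12, 24708254 to 24714146) encodes the small subunit of ribonucleotide reductase that is made in S phase. It had 126, 130 and 130 ppm in polysome Torin1, against 149, 158 and 144 ppm in polysome DMSO. Levels in total mRNA were 112, 114 and 106 ppm in Torin1, against 134, 134 and 132 ppm in DMSO. The groups did not overlap. The log2 fold was -0.23 ± 0.05 in polysome mRNA (adjusted p = 0.0204), which became 0.03 under the column total (adjusted p = 0.873), and -0.27 ± 0.05 in total mRNA (adjusted p = 0.0115), which became -0.31 (adjusted p = 0.0674). The polysome call was lost without DMSO replicate 1 or 2 (adjusted p at most 0.0679) and the total call without Torin1 replicate 3 (adjusted p = 0.0602).

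Rrm1, the large subunit of the same enzyme, had 0.19 ± 0.08 in polysome and -0.07 ± 0.08 in total mRNA and did not pass (adjusted p = 0.149 and 0.659), but rose in polysome mRNA under the column total (log2 fold 0.45, adjusted p = 0.00785). Tk1 (chromosome 11, 117815519 to 117826087) encodes the thymidine kinase of S phase. It had 78.4, 66.8 and 64.5 ppm in polysome Torin1, against 90.5, 82.1 and 94.5 ppm in polysome DMSO. The total mRNA libraries had 45.6, 41.7 and 38 ppm in Torin1, against 52.4, 47 and 57.6 ppm in DMSO. The groups were close but did not overlap. limma gave a log2 fold of -0.35 ± 0.10 in polysome mRNA (adjusted p = 0.0493), just inside the threshold, and -0.32 ± 0.10 in total mRNA (adjusted p = 0.0825), just outside it. In polysome mRNA the call was lost without Torin1 replicate 2 or 3 or DMSO replicate 1 or 3 (adjusted p at most 0.157) and under the column total (log2 fold -0.10, adjusted p = 0.624). Tyms, which makes thymidylate, had -0.20 ± 0.12 and -0.33 ± 0.12 and did not pass (adjusted p = 0.346 and 0.134). Dut, which removes dUTP, had -0.16 ± 0.07 and -0.08 ± 0.07 (adjusted p = 0.156 and 0.538).

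Fen1 had the smallest adjusted p of the falls in both kinds of mRNA. Fen1 (chromosome 19, 10199132 to 10204393) encodes the flap endonuclease that trims the 5′ ends of Okazaki fragments. It had 50, 47.4 and 43.5 ppm in polysome Torin1, against 59.6, 65.9 and 62.6 ppm in polysome DMSO. In total mRNA it had 34.6, 35.1 and 32.6 ppm in Torin1, against 48.2, 48.3 and 44.9 ppm in DMSO. The groups were well apart in both. This made a log2 fold of -0.42 ± 0.07 in polysome mRNA (adjusted p = 0.00284) and -0.47 ± 0.07 in total mRNA (adjusted p = 0.00245), calls kept without each of the 6 libraries. Under the column total the fall stayed in total mRNA (-0.50, adjusted p = 0.022) and was lost in polysome mRNA (-0.16, adjusted p = 0.34). Fen1 overlaps Tmem258, a gene at 254 ppm of the column on the other strand, by 192 bases, so its values are uncertain without strand. Lig1, the ligase that seals the trimmed fragments, had -0.05 ± 0.09 in polysome and -0.15 ± 0.09 in total mRNA and did not pass.

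**Figure D3:**
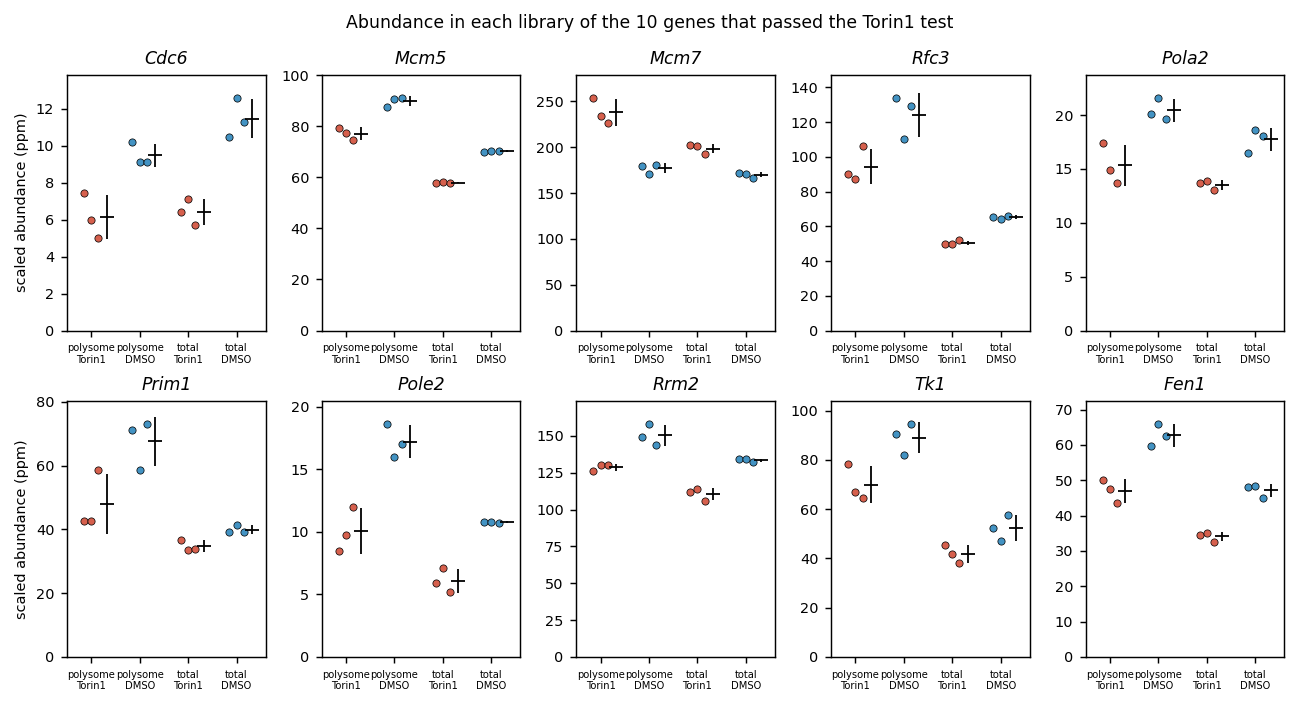
Scaled abundance (ppm, axes from 0) in each of the 12 libraries of the 10 genes that passed the Torin1 test in polysome or total mRNA, red for Torin1 and blue for DMSO, with black marks for the mean ± SD of the 3 libraries beside them. Mcm7 is the gene with Torin1 above DMSO, and in the other 9 the Torin1 libraries lie at or below the lowest DMSO library of the same fraction.

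Whether Torin1 changed polysome association beyond the change in total mRNA is asked by the difference of the 2 responses. None of the 49 genes passed that test in either direction, beside 0.707% of all genes below and 0.0148% above 0. At an unadjusted p below 0.05, 4 passed, again with no share of all genes to set beside them. The median of the 49 was 0.02 and that of all genes 0.01. The estimates ran from -0.34 ± 0.23 for Pole to 0.34 ± 0.23 for Pola1. All 6 genes of the MCM ring were above 0, with values from 0.06 to 0.24. Of the 6 genes of the clamp and its loader 5 were below 0, with a median of -0.14, but under the column total, which put the median of all genes at 0.29, 2 of all 49 were. For Fen1 the difference was 0.05 ± 0.10, for Pole2 0.06 ± 0.20 and for Cdc6 0.20 ± 0.21. The standard errors, from 0.07 to 0.32, leave changes of that size undetectable here.

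Without Torin1, the mRNAs of these genes differed widely in polysome association. In DMSO cells, polysome against total mRNA gave 25 of the 49 higher and 3 lower, beside 20.7% of all genes higher and 20.4% lower. The median log2 difference was 0.20 for the 49 genes and -0.03 for all genes. All 3 polysome libraries lay above all 3 total libraries for 27 of the 49 and below them for 6, beside 26% and 27.4% of all genes. Among genes with a mean of at least 2 ppm, 32.5% were higher and 28% lower.

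The highest were a clamp loader subunit, a single-strand binding subunit and a GINS subunit. Rfc4 had 127, 103 and 122 ppm in polysome DMSO, against 39.9, 42.1 and 39.7 ppm in total DMSO, a log2 difference of 1.53 ± 0.16 (adjusted p = 1.53e-05). Rpa3, the smallest RPA subunit, had 325, 251 and 330 ppm in polysome DMSO, against 120, 115 and 109 ppm in total DMSO, a difference of 1.38 ± 0.17 (adjusted p = 3.19e-05). Gins1 had 97.4, 78.9 and 93.5 ppm in polysome DMSO, against 35, 34.8 and 41.3 ppm in total DMSO, a difference of 1.28 ± 0.14 (adjusted p = 1.72e-05). None of these groups overlapped. Rfc4 overlaps Eif4a2, a translation factor gene at 510 ppm of the column on the other strand, by 185 bases, so its value is uncertain without strand.

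The 3 genes lower in polysome mRNA were Pola1, Mcm4 and Cdc7. Pola1 had 6.48, 5.58 and 4.41 ppm in polysome DMSO, against 10.8, 11.6 and 11.9 ppm in total DMSO, a difference of -1.07 ± 0.16 (adjusted p = 0.000195). Mcm4 had 30.3, 31.5 and 29.2 ppm in polysome DMSO, against 44.8, 46.3 and 41.4 ppm in total DMSO, a difference of -0.54 ± 0.09 (adjusted p = 0.000474). Cdc7 had 12.9, 11.8 and 11 ppm in polysome DMSO, against 15.7, 15.9 and 16.5 ppm in total DMSO, a difference of -0.43 ± 0.11 (adjusted p = 0.00769). The groups did not overlap for any of the 3.

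Subunits of one complex could differ. In the polymerase alpha and primase complex Prim1 had 0.75 ± 0.12 and Prim2 0.60 ± 0.08, Pola2 had 0.20 ± 0.10 and did not pass, and Pola1 was lower. In the MCM ring Mcm5 and Mcm6 were higher (0.35 ± 0.05 and 0.19 ± 0.05, but -0.02 and -0.19 under the column total), Mcm4 was lower and Mcm2, Mcm3 and Mcm7 did not pass. Of the clamp and its loader 5 of 6 were higher, all but Rfc1, the large subunit, at -0.12 ± 0.13. Of the dNTP genes 4 of 5 were higher, from 0.17 for Rrm2 (-0.20 under the column total) to 1.17 for Tyms, and Rrm1 at 0.07 ± 0.08 did not pass. Of 8 helicase activation genes, Gins1, Gins2, Gins4 and Cdc45 were higher and Cdc7 lower. Geminin was higher (1.18 ± 0.14), while Cdc6 and Cdt1 did not pass (-0.27 ± 0.15 and 0.01 ± 0.10). In origin recognition Orc5 and Orc6 were higher (0.96 ± 0.14 and 0.83 ± 0.14).

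The call on Mcm6 was lost without total DMSO replicate 1 (adjusted p = 0.0691), and that on Rrm2 without any total DMSO replicate or without polysome DMSO replicate 2 (adjusted p at most 0.0796). The column total put the median of all genes at -0.37. Under it 17 of the 49 were higher and 15 lower, beside 1853 and 6708 of all 20240 genes. Rfc5 and Prim2 were among those that lost the call there (differences of 0.36 and 0.23, adjusted p = 0.098 and 0.0693). In Torin1 cells the polysome over total difference was 1.26 for Rfc4 and -0.72 for Pola1.

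**Figure D4:**
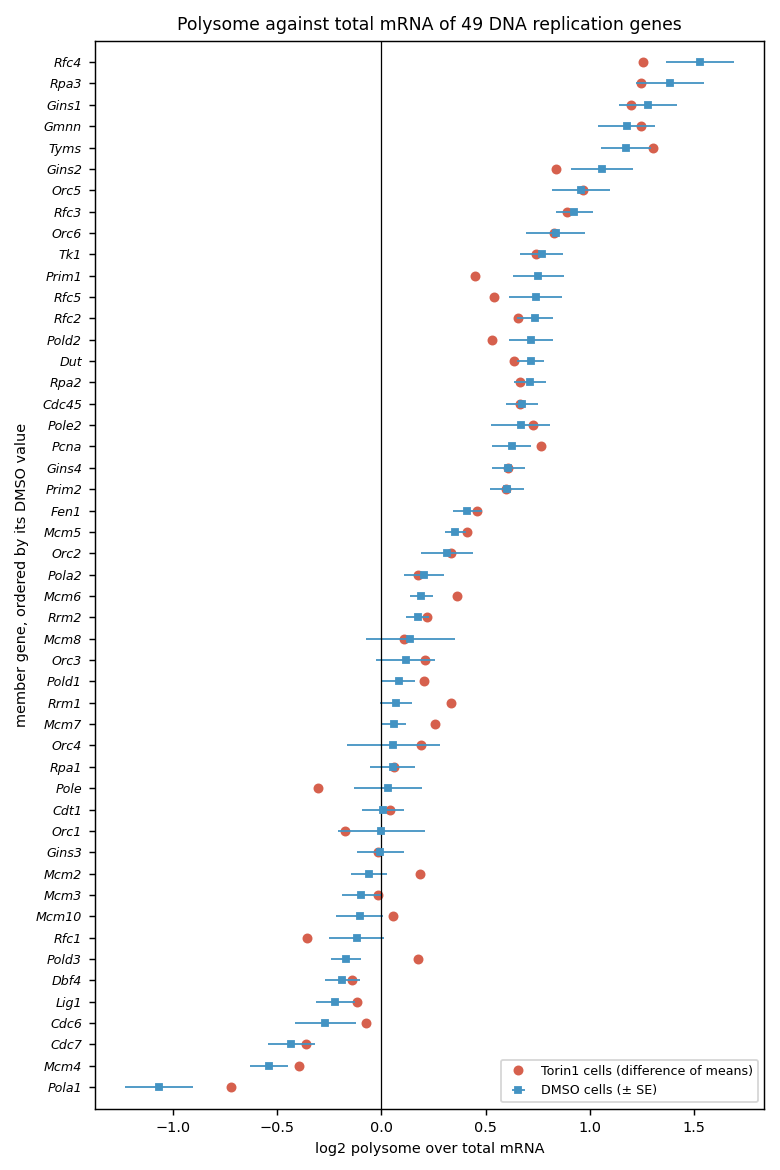
Log2 difference of polysome over total mRNA for the 49 genes, ordered by the value in DMSO cells (blue squares, ± standard error), with the difference of means in Torin1 cells as red circles. The values in DMSO run from 1.53 for Rfc4 to -1.07 for Pola1, and in Torin1 cells they are 1.26 and -0.72; no gene's shift between DMSO and Torin1 cells passed the test.

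Other genes of the same pathways were read from lists drawn up beside the 49 (limma). Of 41 other fork and origin factors, all tested, 2 rose and 3 fell in polysome mRNA, with a median log2 fold of -0.05, and 0 rose and 4 fell in total mRNA, with a median of -0.11. The risers in polysome mRNA were Top2a, the topoisomerase that untangles sister DNA, and Dnmt1, the methyltransferase that copies DNA methylation. Top2a had 57.5, 74.6 and 78.8 ppm in polysome Torin1, against 48.4, 42 and 36 ppm in polysome DMSO, a log2 fold of 0.74 ± 0.12 (adjusted p = 0.00248). Dnmt1 had 46.2, 52.3 and 39.5 ppm in polysome Torin1, against 32.7, 33 and 30.7 ppm in polysome DMSO, a log2 fold of 0.51 ± 0.09 (adjusted p = 0.00295). Their folds in total mRNA were 0.09 ± 0.12 and 0.04 ± 0.09, and the difference of the 2 responses did not pass for either (adjusted p = 0.227 and 0.224). In total mRNA Dna2, a nuclease and helicase of flap processing, had -0.73 ± 0.16 (adjusted p = 0.0153) and Chaf1a, which deposits histones behind the fork, -0.45 ± 0.09 (adjusted p = 0.0119). The call on Dna2 was lost without Torin1 replicate 3 or DMSO replicate 1 or 2 (adjusted p at most 0.068), and that on Chaf1a without Torin1 replicate 3 or DMSO replicate 1 (adjusted p at most 0.0574). All 4 genes that fell in total mRNA, with Dscc1 and Chaf1b, lost their calls without total Torin1 replicate 3. The 3 that fell in polysome mRNA, Donson, Rfwd3 and Chaf1b, lost theirs under the column total (adjusted p = 0.383, 0.777 and 0.83). In DMSO cells 15 of the 41 were higher in polysome than in total mRNA and 16 lower, beside 20.7% and 20.4% of all genes. Of genes with a mean of at least 2 ppm, 32.5% were higher and 28% lower. Among the lower were Top2a with -1.55 ± 0.12 and Rif1, a timing factor of origin firing, with -1.39 ± 0.17.

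Of 17 other enzymes of dNTP supply, 1 rose and 2 fell in polysome mRNA, with a median of -0.18, and 0 rose and 2 fell in total mRNA, with a median of -0.07. Nme2, a nucleoside diphosphate kinase, had 545, 503 and 640 ppm in polysome Torin1, against 961, 807 and 1000 ppm in polysome DMSO, a log2 fold of -0.72 ± 0.10 (adjusted p = 0.000798). In total mRNA its fold was 0.05 ± 0.10, and the difference of -0.77 ± 0.14 passed (adjusted p = 0.0255). That call was lost in 10 of the 12 fits that left out 1 library, all but those without polysome Torin1 replicate 3 or polysome DMSO replicate 2 (adjusted p at most 0.0956). Mthfd1, a folate enzyme, had 0.32 ± 0.09 in polysome mRNA (adjusted p = 0.0434), a call kept only without polysome Torin1 replicate 3 (adjusted p at most 0.155 in the other 5 fits). In total mRNA Dck, the deoxycytidine kinase, had -0.37 ± 0.07 (adjusted p = 0.00947). That call was kept without each of the 6 libraries and lost under the column total (log2 fold -0.40, adjusted p = 0.0592). In DMSO cells 12 of the 17 were higher in polysome mRNA and 1 lower, beside 20.7% and 20.4% of all genes. The highest were Dctpp1, a dCTP pyrophosphatase, with 1.62 ± 0.11 and Nme1 with 1.37 ± 0.09.

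Markers of the cells were checked beside these results. No marker of any of the 7 lists was at 0 in any library. The summed cortical progenitor markers were 4480 to 6910 ppm in polysome Torin1 and 4920 to 6060 ppm in polysome DMSO, which overlap, and 3900 to 4000 ppm in total Torin1 and 3430 to 3520 ppm in total DMSO. In total mRNA Vim averaged 1710 ppm in Torin1 and 1130 ppm in DMSO, while Fabp7, with the highest values of that list, averaged 1870 ppm in Torin1 and 2040 ppm in DMSO. Of the 8, 3 rose in each kind of mRNA. Beside these and the marker counts below, 4.55% of all genes rose in polysome and 3.31% in total mRNA. The call on Sox2 in total mRNA was lost without any one of the 6 libraries (adjusted p at most 0.0844) and under the column total (adjusted p = 0.258). In polysome mRNA it was lost in 3 of the 6 fits that left out 1 library (adjusted p at most 0.0831). In total mRNA neuron markers summed to 2900 to 2970 ppm in Torin1 and 2720 to 2770 ppm in DMSO. In polysome mRNA their sums overlapped, with 2740 to 2850 ppm in Torin1 and 2630 to 2750 ppm in DMSO. Of these 8 markers 1, Tbr1, rose in each kind of mRNA. Its total call was lost in 4 of the 6 fits that left out 1 library (adjusted p at most 0.0644) and under the column total (adjusted p = 0.146). All 4 intermediate progenitor markers rose in both kinds of mRNA, with sums of 205 to 268 ppm in polysome Torin1 against 159 to 162 ppm in polysome DMSO, and 266 to 275 ppm in total Torin1 against 176 to 185 ppm in total DMSO. Of these 4, Insm1 lost its call in 5 of the 6 fits that left out 1 library in each kind of mRNA (adjusted p at most 0.0712 in total and 0.113 in polysome mRNA). Under the column total Insm1 and Eomes lost theirs in total mRNA (adjusted p = 0.0823 and 0.0719). Of 5 meningeal and mural markers, 2 rose in polysome and 3 in total mRNA (sums of 43.8 to 53.8 ppm in total Torin1 and 24.4 to 31.3 ppm in total DMSO), and of 5 endothelial markers 1 rose in each (15.2 to 15.3 ppm in total Torin1 and 10.6 to 11 ppm in total DMSO). None of 6 microglia markers (8.29 to 10.5 ppm in total Torin1, 5.68 to 11.7 ppm in total DMSO) or of 7 erythroid markers (1630 to 1880 ppm in total Torin1, 1490 to 1600 ppm in total DMSO) passed limma's test in either. Without total Torin1 replicate 3, Col1a2 and Col3a1 of the meningeal and mural risers lost their calls in total mRNA (adjusted p = 0.0668 and 0.0997). The endothelial riser Cldn5 lost its call in total mRNA without any one of the 6 libraries (adjusted p at most 0.117), and in polysome mRNA without Torin1 replicate 1 or DMSO replicate 1 or 2 (adjusted p at most 0.106). The part of these shifts in the replication gene results was not tested.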

How the data were processed

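Values were read from the deposited table of 12 libraries. The signal it holds is the authors' own and is not read counts: per the values, those below 50 lie within 0.011 of whole multiples of a step that is a fixed share of the column, so a step is not a read. Per the submitters' processing notes, the tools were STAR 2.7.9a and HTSeq 0.6.0 and the build mm10. No source used here says how the signal was scaled.

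Each library was scaled to its column total and a trimmed mean, without weights, of its log ratios to the geometric mean library (own code, trims of 0.3 and 0.05). Of 53351 genes, the 20240 that reached a value of 1 in 3 libraries entered the test. It was run on log2(value + 1) with limma 3.58.1 (R 4.3.3), 1 mean per group, all 12 libraries together, and a variance trend with abundance, with Benjamini-Hochberg adjustment per comparison at 0.05. Alternatives were other scalings, filters, a pseudocount of 0.1, only the groups compared, replicate blocks, each library left out and a 1.5-fold minimum. Library values are named for members past the Torin1 test for the highest and lowest member and for the 3 highest and 3 lowest in polysome against total mRNA, and also for Mcm6 and Rpa2, chosen after their values were seen, and from other lists the 2 largest folds past the threshold per comparison. Within-library ratios were chosen after seeing the data and not tested. Members and lists were chosen with earlier results of these data known. Spans and promoters are RefSeq's for GRCm38.p6, the assembly of mm10. In it 13 members overlap a protein-coding gene, and no source used here says whether counting used the strand. The values of 1 gene of the dNTP supply list are not reported here.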

Additional observations from a re-analysis of the deposited data

How the results depend on the processing

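Values are relative within a library, their depth is unknown, and the spread rests on 3 libraries a group. The 10 genes that passed had 300 alternatives, 15 for each gene and kind of mRNA. Of these 226 kept direction and side of the threshold, 72 kept direction and lost the call, and 0 gained one. The other 2 turned direction and lost the call, Mcm5 (0.034) and Rrm2 (0.028) in polysome mRNA under the column total. Prim1 and Tk1 in total mRNA had no call to lose, and all 15 alternatives of each count among the 226. Scaling to the column total gave 8 members higher and 1 lower in polysome mRNA, beside 2911 and 329 of all genes. It gave 0 higher in total mRNA, beside 329 of all genes. In polysome against total mRNA of DMSO cells 15 members were lower, beside 6708 of all genes. Fits of only the groups compared, where each comparison has its own spread, gave 14 lower in total and 0 lower in polysome mRNA. Of all genes, 1545 and 263 were lower there. A minimum of 1.5-fold left 0 higher and 2 lower in total mRNA, beside 390 and 265 of all genes. In polysome mRNA it left 0 higher and 2 lower, beside 483 and 475 of all genes. For polysome against total mRNA it left 21 higher and 1 lower, beside 2533 and 2889 of all genes. Leaving out 1 library gave 0 higher and 4 to 5 lower in total mRNA, and 1 to 4 higher and 4 to 20 lower in polysome mRNA. For polysome against total mRNA it gave 23 to 25 higher and 3 to 4 lower, with 0 for the difference of responses in either direction. Of all genes, 3746 to 3928 were higher and 3606 to 3779 lower in polysome than in total mRNA in those fits. Counts over all genes moved in these fits too, with 369 to 494 lower in total mRNA and 688 to 1696 lower in polysome mRNA. With the replicate number as a block, 1 was higher and 7 lower in total mRNA, beside 562 and 722 of all genes. In polysome mRNA 1 was higher and 10 lower with that block, beside 826 and 1092 of all genes. Polysome against total mRNA then gave 25 higher and 3 lower, beside 4165 and 4070 of all genes. Same-numbered libraries did not all deviate together (r from -0.24 to 0.218 over 9352 genes), so the numbers were not taken to pair samples, and no comparison had each library correlate best with its own number. A block of treatment and replicate number together would stand for the lysate if equal numbers mark one lysate, which the labels do not state. With it, 24 were higher and 3 lower in polysome than in total mRNA, beside 4078 and 3869 of all genes. For the difference of responses 0 passed, beside 0 above and 91 below 0 of all genes. The median of ratios, the upper quartile, both filters and the pseudocount moved no count by more than 1.5 times.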
